A study of Homo sapiens with 3 samples.

Results

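The miR-183, miR-96 and miR-182 cluster was described in extracellular vesicles (EVs) of HepG2 cells through its 3 mature 5p miRs, which are 3 of the 512 miR names in the deposited table of raw counts. The members were chosen by name, as the rows hsa-miR-183-5p, hsa-miR-96-5p and hsa-miR-182-5p, with no threshold on their values. The 3p arms of these precursors were not analysed here. HepG2 is an established line of human hepatoma cells that is used as a model of hepatocytes, labelled as wildtype, and EVs are membrane-bound particles that cells release. The only condition was culture in serum-free medium for 48 hr, after which EVs were collected by ultracentrifugation in 3 batches, and RNA of each batch gave 1 small RNA library. The totals ran from 7933 to 10834 miR counts per batch, and a count of 0 at these totals allows a share of up to 0.0277% to 0.0378% (3 counts). There was no untreated, cellular or other control library, so the batches could be compared only with each other.

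A miR is a short RNA that guides silencing proteins to messenger RNAs, mainly by pairing through its seed, positions 2 to 8 counted from the 5′ end. The 3 miRs of this cluster are cut from a single primary transcript and are known from sensory organs such as the inner ear and the retina, where seed mutations of miR-96 cause hearing loss in humans and mice. The cluster is also known to be raised in many epithelial tumors, hepatocellular carcinoma among them, and its targets there include regulators of cell growth such as FOXO transcription factors.

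The mature sequences are shown because the members differ by few bases and fall into seed groups that the results below refer to. They are given 5′ to 3′ as in RefSeq (GRCh38.p14), with the seed in capitals.
miR-183-5p: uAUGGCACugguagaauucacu
miR-96-5p: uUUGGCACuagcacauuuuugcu
miR-182-5p: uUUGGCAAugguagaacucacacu
All 3 lie on the minus strand of chromosome 7, miR-183-5p at chr7:129774967-129774988, miR-96-5p at chr7:129774739-129774761 and miR-182-5p at chr7:129770447-129770470. On GRCh38, the precursor genes run in the order MIR183 (129774905 to 129775014), MIR96 (129774692 to 129774769) and MIR182 (129770383 to 129770492), with 135 bases between MIR183 and MIR96 and 4199 bases between MIR96 and MIR182. In GENCODE 29 none of them overlaps another annotated gene, and each mature sequence has 1 locus in the RefSeq table.

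Positions 2 to 7 are the same in miR-96-5p and miR-182-5p, which differ within the seed only by C8A (the first base is that of miR-96-5p, the last that of miR-182-5p, and positions count from the 5′ end). miR-183-5p differs from miR-96-5p within the seed only by A2U. Over its whole length miR-183-5p is nearest to miR-182-5p, with 18 of 22 positions the same and the differences A2U, C8A, U17C and U22A. It shares 13 of 22 positions with miR-96-5p, and miR-96-5p shares 12 of 23 with miR-182-5p. No other human mature miR in the RefSeq table came closer than 7 mismatches to any member when aligned without gaps from the 5′ end. Thus miR-183-5p and miR-182-5p reads can be told apart by 4 bases, although the number of mismatches that the counting allowed is not known here. The only other human miR with the seed of miR-96-5p is miR-1271-5p, which is not among the 512 miR names counted.

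miR-183-5p and miR-182-5p were both among the abundant miRs of HepG2 EVs, and miR-96-5p was close to the limit of detection. miR-183-5p had 85, 154 and 98 counts in batches 1, 2 and 3. These counts were 0.977%, 1.42% and 1.24% of the batch totals, with 95% Wilson intervals of 0.791% to 1.21%, 1.22% to 1.66% and 1.01% to 1.5%. Batch 2 was highest and batch 1 lowest, and only the intervals of these batches did not overlap. The mean share was 1.21% ± 0.223 (SD, n = 3 batches), at place 12 of all miRs by mean share and at places 17, 10 and 12 in batches 1, 2 and 3.

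miR-182-5p had 75, 125 and 82 counts in batches 1, 2 and 3. They made up 0.862%, 1.15% and 1.03% of the totals (95% Wilson intervals 0.688% to 1.08%, 0.969% to 1.37% and 0.834% to 1.28%). The order of the batches was that of miR-183-5p, but all 3 intervals overlapped. The mean share was 1.02% ± 0.147 (SD, n = 3), at place 15 overall and at places 20, 13 and 13 by batch.

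miR-96-5p had 2, 1 and 1 counts in batches 1, 2 and 3, so that it was counted in each library but never above the 3 counts that a count of 0 allows. Its pooled share was 0.0146% (95% Wilson interval 0.00566% to 0.0374%). It was 1 of 18 names with 4 counts in sum, and 125 names had more. The differences between its shares in the batches were far within counting error.

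**Figure D1:**
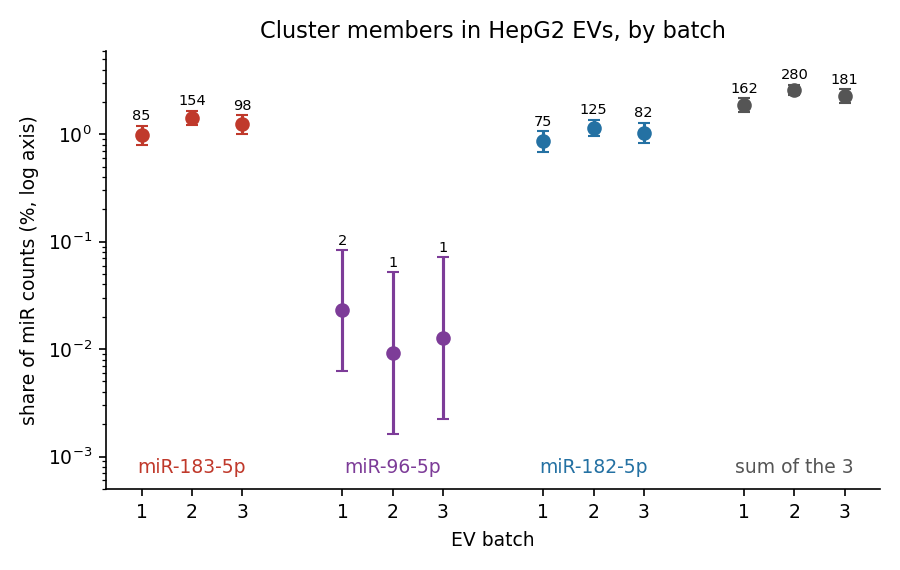
Share of the miR counts (%, log axis) of each cluster member and of their sum in the 3 EV batches. Points are single libraries, bars are 95% Wilson intervals and the printed numbers are the counts, with miR-183-5p at 85 to 154, miR-182-5p at 75 to 125 and miR-96-5p at 1 or 2.

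Summed over its members, the cluster held 162, 280 and 181 counts, or 1.86%, 2.58% and 2.28% of the totals in batches 1, 2 and 3 (mean 2.24% ± 0.363, SD, n = 3). Grouped by positions 2 to 7 of the seed, miR-183-5p stood alone with 1.21% ± 0.223. The group of miR-96-5p and miR-182-5p held 1.03% ± 0.140, or 77, 126 and 83 counts, nearly all from miR-182-5p. Intervals here cover counting error only, since reads are not independent molecules, and the counts need not follow the numbers of molecules, since adapters join some small RNAs more readily than others.

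Of the neighbors by mean share, those next to each member lay close to it, while miR-92a-3p lay above miR-183-5p in every batch. With 3 batches the sign-flip test used here could not have told an order among the neighbors. miR-183-5p followed miR-378a-3p (1.45% ± 0.172) and preceded miR-26a-5p (1.16% ± 0.518) and miR-30d-5p (1.08% ± 0.428). miR-182-5p stood between miR-30d-5p and miR-99b-5p (0.988% ± 0.460), and was followed by miR-146a-5p (0.954% ± 0.249) and miR-3615 (0.916% ± 0.124). In the exact two-sided sign-flip test over the 3 batches, whose smallest possible p is 0.25, p was 0.5 for miR-183-5p against miR-378a-3p, and 1.0 for miR-182-5p against miR-99b-5p. miR-92a-3p, at place 9 with 2.34% ± 0.641, exceeded miR-183-5p in 3 of 3 batches (p = 0.25, exact sign-flip test). Its counts were 268, 218 and 153 in batches 1, 2 and 3, against 85, 154 and 98 for miR-183-5p. miR-122-5p, which dominates the miRs of normal hepatocytes, at place 10 here, exceeded it in batches 1 and 3 only.

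**Figure D2:**
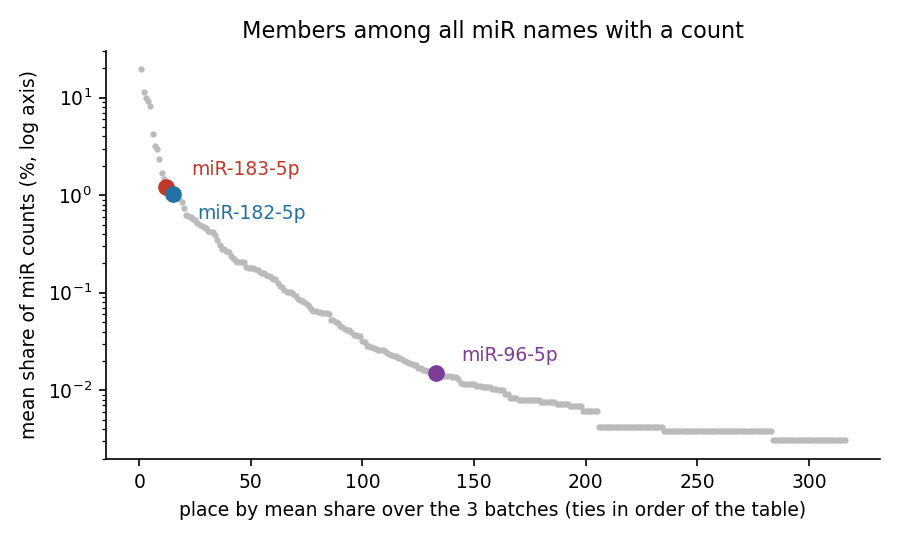
Mean share of the miR counts (%, log axis) against the place by mean share for every name with a count, over the 3 batches. miR-183-5p and miR-182-5p lie close together at places 12 and 15, and miR-96-5p lies far down the curve at a mean share of 0.0149%.

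miR markers of hepatocytes made up a large part of the counts, and those of other cells a small one. The 4 hepatocyte miRs miR-122-5p, miR-192-5p, miR-194-5p and miR-148a-3p held 15.8% to 16.6% of the counts in the 3 batches. Most of this came from miR-148a-3p, with 10.5%, 12.6% and 11.2% in batches 1, 2 and 3. miR-122-5p had 2.48%, 0.905% and 1.64%, and miR-194-5p only 7, 7 and 3 counts. Of 5 miRs of neurons and of neuroendocrine or sensory cells, where the cluster is also found, 2 had a count, and the list summed to 0.218%, 0.0462% and 0.0504% in batches 1, 2 and 3. The endothelial list summed to 0.0804%, 0.0185% and 0.0252%, the stromal list to 0.103%, 0.0369% and 0.0504%. Muscle miRs had a single count, in batch 1. All 4 of these lists were highest in batch 1, where the cluster was lowest, and their part in the results was not tested. They hold few counts, with 7, 2 and 2 in the endothelial list. A higher share in batch 1 was also common among the 64 miRs with at least 30 counts in sum. Their median log2 change from batch 1 was -0.35 in batch 2 and -0.42 in batch 3. The blood list had 1 count, in batch 2. Only 3 of the 4 blood names, 3 of the 4 stromal names and 4 of the 5 neuronal or sensory names were among the miR names counted. The remaining names could not add to these sums.

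Within the cluster, miR-183-5p exceeded miR-182-5p by a small and even margin in every batch. miR-183-5p made up 52.5%, 55.0% and 54.1% of the cluster counts in batches 1, 2 and 3, against 46.3%, 44.6% and 45.3% for miR-182-5p and 1.23%, 0.357% and 0.552% for miR-96-5p. The ratio of miR-183-5p to miR-182-5p was 1.13, 1.23 and 1.20, with exact 95% binomial intervals of 0.821 to 1.57, 0.967 to 1.57 and 0.882 to 1.62. Each interval included 1, so within a single library the order of the 2 miRs was not detectable at this depth. On the log2 scale the ratio averaged 0.25 ± 0.06 (SD, n = 3, with 0.5 added to both counts), above 0 in 3 of 3 batches (p = 0.25 in the exact sign-flip test, the smallest that 3 batches allow). Pooled over the batches, the counts were 337 and 282, a ratio of 1.20 with an interval of 1.02 to 1.40 that holds for these reads and not for new batches.

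The ratio of miR-183-5p to miR-182-5p also varied little between the batches. It differed by 0.12 on the log2 scale between its highest and lowest batch, and the exact conditional (Fisher-Freeman-Halton) test of the 3 batches gave p = 0.914, or an adjusted p of 0.929 over 125 pairs. The change of the ratio was 1.09-fold for batch 2 over batch 1 (exact 95% interval 0.722 to 1.64), 1.05-fold for batch 3 over batch 1 (0.673 to 1.65) and 0.970-fold for batch 3 over batch 2 (0.654 to 1.44). Changes of the ratio inside these intervals could not be detected at this depth.

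miR-96-5p stood apart from its partners of the same transcript. miR-183-5p had 42.5, 154 and 98 times its counts in batches 1, 2 and 3, with exact 95% intervals of 11.4 to 357, 27.2 to 6122 and 17.2 to 3910. miR-182-5p had 37.5, 125 and 82 times its counts. Pooled, the ratios were 84.2 (32.6 to 311) and 70.5 (27.2 to 261). The lowest bound in any single batch was 11.4 for miR-183-5p and 10.0 for miR-182-5p, both in batch 1. The spread of these ratios between batches rests on 1 or 2 counts and was within counting error.

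Each member's share was next compared between the batches. This was done for all 64 miRs with at least 30 counts in sum by the exact multinomial test with Benjamini-Hochberg adjustment, which sets 1 library per batch against counting noise. Of the 64, 25 differed at an adjusted p under 0.05 (39.1%), and 28 did at an unadjusted p under 0.05 (43.8%). The 25 were highest in batch 1 in 19 cases (29.7%), in batch 2 in 4 (6.25%), miR-183-5p among them, and in batch 3 in 2 (3.12%). miR-183-5p was 1.46-fold higher in batch 2 than in batch 1, and its adjusted p by the exact multinomial test was 0.0492, just under the threshold. The call was lost without replicate 1 (0.838) and without replicate 2 (0.240), with miRs of at least 10 counts included (0.0613), and in a chi-square test (0.0520). miR-182-5p varied 1.34-fold in the same direction and did not pass (adjusted p = 0.235). miR-96-5p had too few counts to be tested.

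As shares of the total counts, both miRs were higher in batches 2 and 3 than in batch 1, while the median miR was lower there, although only miR-183-5p passed the test. In batch 2 over batch 1 the log2 share of miR-183-5p changed by 0.54 and that of miR-182-5p by 0.42, while the median of the 64 miRs was -0.35. Batch 3 over batch 1 gave 0.34 and 0.26, against a median of -0.42. Only 3 of the 64 miRs gained more than miR-183-5p, and 6 more than miR-182-5p, in batch 2 over batch 1, and 10 and 12 in batch 3 over batch 1. Scaled with TMM factors (1.23, 0.895 and 0.911), the medians came to 0.10 and 0.01, and the changes of miR-183-5p to 0.99 and 0.77 and those of miR-182-5p to 0.87 and 0.69. With this scaling both miRs differed between batches, with adjusted p-values of 4.11e-06 and 0.000478 by the exact multinomial test, where 22 of 64 did. DESeq2 size factors gave 1.52e-05 and 0.00120, and totals taken without the 5 most abundant miRs gave 1.13e-06 and 0.000178. Under each of these 4 scalings both members were lowest in batch 1 and highest in batch 2. The tests take each scaling factor as known without error, and the other scalings were not combined with leaving out a batch. As shares of the total counts without replicate 1, the adjusted p-values were 0.838 and 0.898 (exact multinomial test).

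**Figure D3:**
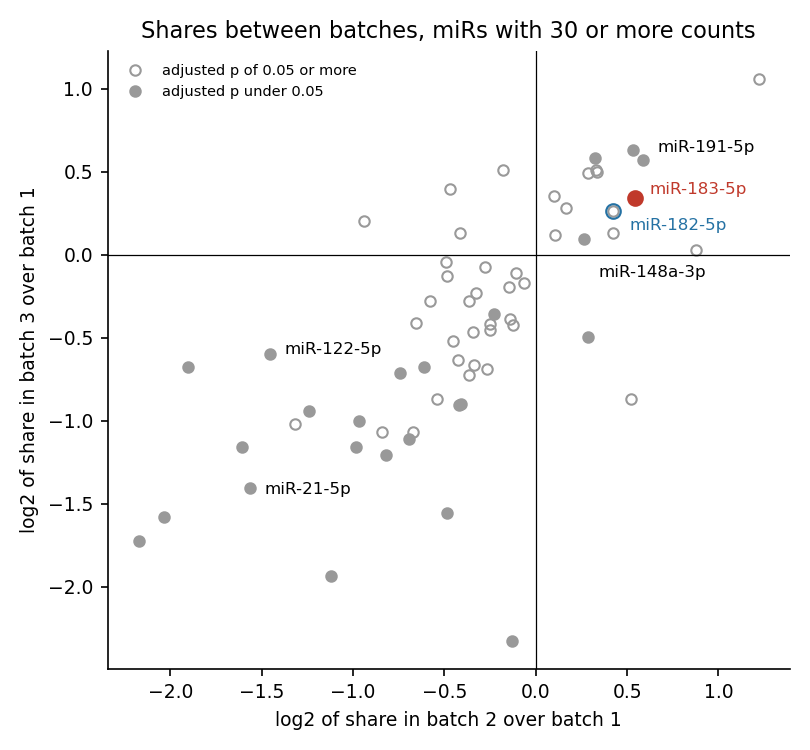
Log2 of the share in batch 2 over batch 1 (x axis) and in batch 3 over batch 1 (y axis) for the 64 miRs with at least 30 counts, as shares of the total counts, with filled points for the 25 at an adjusted p under 0.05. miR-183-5p (0.54, 0.34) and miR-182-5p (0.42, 0.26) lie side by side above 0 on both axes, near miR-191-5p and far from miR-21-5p and miR-122-5p.

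Because the total of a library is set by its most abundant miRs, the members were also compared with each other miR directly, as a ratio of counts within the library, which no scaling can change. Of 63 such ratios, 27 differed between the batches for miR-183-5p (42.9%) and 22 for miR-182-5p (34.9%), at an adjusted p under 0.05 in the exact conditional test. These p-values were adjusted over the 125 pairs that hold a member. Adjusted over all 2016 pairs of the 64 miRs, 26 and 20 ratios of the members differed (41.3% and 31.7%), and 461 of all pairs did (22.9%). The members, with 337 and 282 counts in sum, have more counts than most of the 64, and more counts make a difference easier to call. These percentages are therefore not at like depth, and whether the members stand out beyond that was not tested. The 22 were all among the 27, and in every one of these ratios the member was relatively lowest in batch 1. The ratio of any miR to the 2 members shares those members' counts, so the lists are not independent. Without replicate 1, only 1 of 49 ratios differed for each member, that to miR-122-5p (adjusted p of 0.00793 and 0.0180 in the exact conditional test).

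The named miRs show both patterns. Against miR-21-5p, which many tumors overproduce, the log2 ratio of miR-183-5p was -2.90, -0.80 and -1.16 in batches 1, 2 and 3 (adjusted p = 2.60e-22, exact conditional test). Against miR-122-5p it was -1.34, 0.65 and -0.41 (adjusted p = 2.13e-12, exact conditional test), so that miR-183-5p exceeded miR-122-5p in batch 2 alone. The same ratios of miR-182-5p were -3.08, -1.10 and -1.41 against miR-21-5p and -1.52, 0.35 and -0.66 against miR-122-5p.

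Over the 5 most abundant miRs and over miR-192-5p, no ratio of either member passed the test. Over miR-191-5p, the leading miR of these EVs, miR-183-5p was at -3.90, -3.95 and -4.13 on the log2 scale (adjusted p = 0.563, exact conditional test). Over miR-148a-3p, which is plentiful in liver, it was at -3.42, -3.15 and -3.17 (adjusted p = 0.435). Over miR-192-5p, a miR of liver and gut, it was at -1.46, -1.08 and -1.40 (adjusted p = 0.283). By mean share miR-21-5p was at place 6 and miR-423-3p at place 7, above miR-192-5p at place 8. The ratio of miR-183-5p to miR-423-3p did differ, with log2 values of -1.90, -1.13 and -1.20 (adjusted p = 0.00485, exact conditional test). The cluster sum amounted to 0.127, 0.117 and 0.105 times the counts of miR-191-5p, whereas it was 0.750, 2.86 and 1.39 times those of miR-122-5p.

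**Figure D4:**
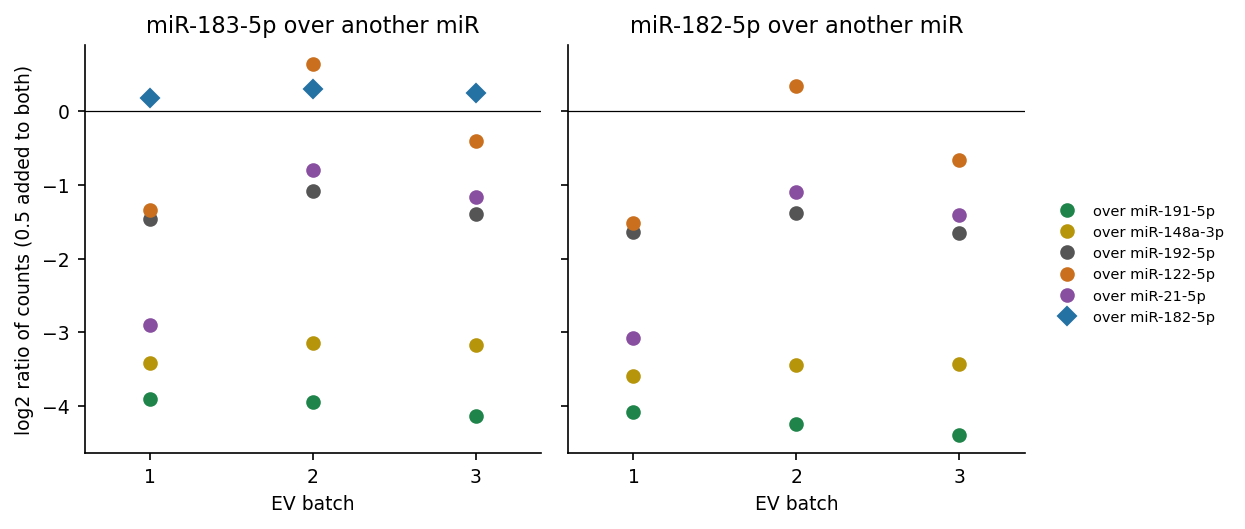
Log2 ratio of the counts of miR-183-5p (left) and miR-182-5p (right) to those of other miRs in each EV batch, with 0.5 added to both counts. The ratio of miR-183-5p to miR-182-5p (diamonds, 0.18 to 0.30) and the ratios to miR-191-5p, miR-148a-3p and miR-192-5p vary by at most 0.37. Those to miR-21-5p and miR-122-5p vary by 1.87 to 2.10 and are lowest in batch 1.

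Likeness of the batch patterns was measured from each miR's share per batch divided by its sum of shares over the 3 batches, as the summed absolute difference divided by 2, in percentage points. The pattern of miR-183-5p was 26.9%, 39.1% and 34.0%, and that of miR-182-5p 28.3%, 37.8% and 33.9%. They differed by 1.38 points, and each was the nearest of 63 miRs to the other, against a median distance of 13.2 points for miR-183-5p and 11.9 for miR-182-5p. The next nearest to miR-183-5p were miR-99b-3p (2.22 points, 44 counts in sum), miR-191-5p (3.24), miR-148a-3p (3.73) and miR-320a (4.73). For miR-182-5p they were miR-99b-3p (1.97), miR-148a-3p (2.34), miR-191-5p (3.34) and miR-483-5p (3.78). This is a description over 3 libraries, and 22 of all 2016 pairs lay closer than miR-183-5p and miR-182-5p. Such distances also hold counting noise, which is larger at few counts, so the median distances are not at like depth. Whether the nearest miRs differ in distance was not tested.

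Other miRs made together from 1 locus were set beside the cluster. miR-25-3p and miR-93-5p, of the miR-106b cluster, also on chromosome 7, differed by 3.72 points in pattern, and miR-99b-5p and miR-125a-5p by 4.66. Their ratios varied over 0.24 and 0.47 on the log2 scale between batches, against 0.12 for miR-183-5p and miR-182-5p, and did not pass the exact conditional test adjusted over all 2016 pairs (adjusted p of 0.889 and 0.879, against 0.953). miR-221-3p and miR-222-3p varied over 1.04 and did not pass (0.592). The ratio of miR-191-5p to miR-425-5p did differ, with log2 values of 5.82, 7.97 and 7.51 (adjusted p = 0.00116). Such ranges also hold counting noise, which is larger at few counts. miR-125a-5p, miR-222-3p and miR-425-5p had 39, 38 and 40 counts in sum, against 337 for miR-183-5p and 282 for miR-182-5p. Whether these pairs differ from the pair of miR-183-5p and miR-182-5p in how far they vary was not tested.

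Among the mature arms listed, a member far below its partners was not seen in this cluster alone. The highest member exceeded the lowest by a pooled ratio of 84.2 here, and by 135 for miR-191-5p over miR-425-5p (exact 95% interval 98.8 to 189, or 228 without replicate 1), 98.7 for miR-30d-5p over miR-30b-5p (33.4 to 481) and 24.1 for miR-25-3p over miR-106b-5p (11.5 to 61.0, or 14.9 without replicate 2 and 65.5 without replicate 3). miR-106b-5p is 1 arm of its precursor, and the other arm, miR-106b-3p, had 51 counts in sum, against 7 for miR-106b-5p. miR-99b-5p over let-7e-5p gave 134.5 (36.9 to 1116) and miR-200b-3p over miR-429 gave 66.0 (11.4 to 2646). The lower miRs of these pairs had 2 and 1 counts in sum. miR-200c-3p had 5 counts in sum and miR-141-3p had 0. miR-221-3p exceeded miR-222-3p by 2.0 (1.34 to 3.04). Without replicate 1, 2 or 3, miR-183-5p over miR-96-5p gave 126, 61.0 and 79.7. These pooled intervals cover counting error only, and the ratio of miR-191-5p to miR-425-5p differed between batches beyond it, as given above.

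**Figure D5:**
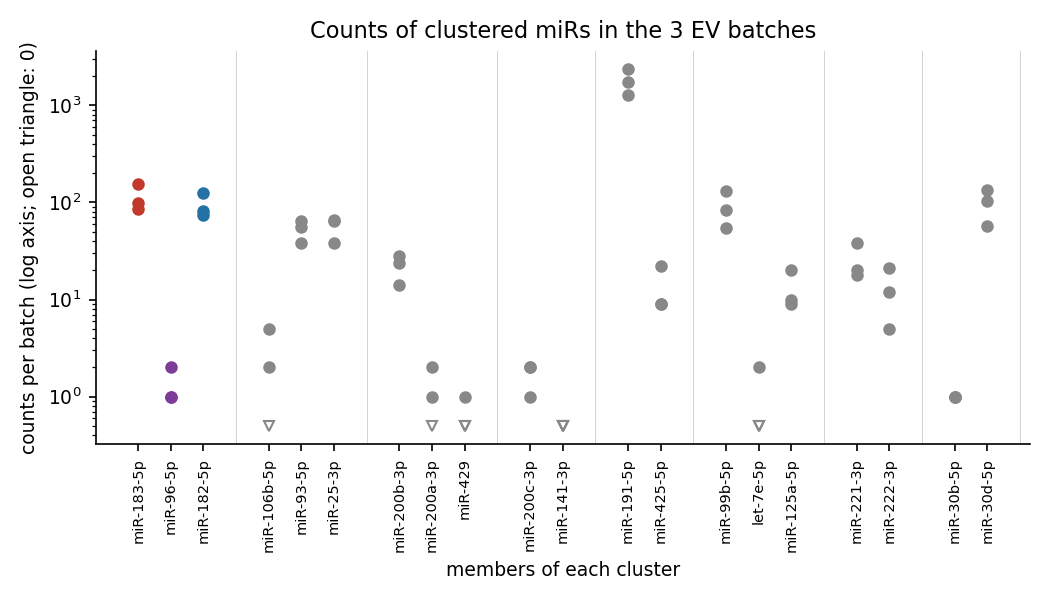
Counts in each of the 3 EV batches (log axis, open triangles for 0) of the miRs of 8 clusters, with the miR-183, miR-96 and miR-182 cluster at the left in color. miR-96-5p, with 1 or 2 counts, lies far below miR-183-5p and miR-182-5p, as miR-30b-5p does below miR-30d-5p and miR-106b-5p below miR-25-3p. The other arm of miR-106b, miR-106b-3p, is not drawn and had 51 counts in sum.

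Short motifs described in miRs that are sorted into vesicles were searched in the mature sequences, read on the strand of the miR. The letters GGAG, CCCU and GGCU occurred in 0 of the 3 members. Among the 56 of the 64 tested miRs with a RefSeq sequence, 7.14% held GGAG, 7.14% CCCU and 16.1% GGCU, and among 2370 human mature miRs 15.7%, 11.9% and 12.6%. The absence of these letters says nothing of how the members entered the EVs.

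The seed groups set which messenger RNAs each member can pair with best. The DNA letters that pair with seed positions 2 to 8 are GTGCCAT for miR-183-5p, GTGCCAA for miR-96-5p and TTGCCAA for miR-182-5p, and the last 2 share the core TGCCAA. In the longest annotated 3′ UTR of 19146 protein-coding genes (GENCODE 29), 10.8% held the match of miR-183-5p, 9.18% that of miR-96-5p, 13.6% that of miR-182-5p and 26.8% any of them. Of 8 genes known as targets of the cluster, FOXO1, FOXO3, MITF, EZR, ITGB1, PDCD4, MTSS1 and ADCY6, all 8 held at least 1 match, with 5 for miR-183-5p, 6 for miR-96-5p and 4 for miR-182-5p. They were listed because they are known targets, and their 3′ UTRs were longer than most (median 2298 bases, against 1102 over all genes), so this count is not independent evidence.

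The sites in genes with a growth or adhesion role are shown to set the seed of each member beside its match. Each line holds 30 bases of a human 3′ UTR around a match, as DNA, with the 7 letters that pair with seed positions 2 to 8 in capitals.
FOXO1, miR-183-5p: ctgtagataaggactGTGCCATtggaaatt
FOXO1, miR-96-5p: tttcattacaatgaaGTGCCAAactcacta
FOXO3, miR-182-5p: tacagagaaaaccctTTGCCAAatctgctc
MITF, miR-182-5p: ttatttatttcttttTTGCCAAatagagtg
EZR, miR-183-5p: gcaggacttccatctGTGCCATacttgttc
ITGB1, miR-183-5p: tcttactttgagttaGTGCCATaacagacc
On GRCh38 the capitals lie at chr13:40558807-40558813 and chr13:40558779-40558785 for FOXO1, a transcription factor that restrains growth and drives glucose production in liver. FOXO1 held 2 matches for miR-183-5p and 2 for miR-96-5p and none for all 7 letters of miR-182-5p, whose core TGCCAA is part of the miR-96-5p match. FOXO3, a related transcription factor, held 2 matches for miR-182-5p, of which that shown lies at chr6:108679864-108679870. The sites shown for MITF, a transcription factor of pigment cells, EZR, which links the membrane to actin, and ITGB1, an integrin subunit, lie at chr3:69967727-69967733, chr6:158766540-158766546 and chr10:32900552-32900558.

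Fibrosis-related genes, listed because the study concerns liver fibrosis (all collagens, ACTA2, MMPs and TIMPs), held matches at about the share of all genes. Of 72 such genes, 16 held at least 1 match (22.2%, against 26.8% of all genes), 6 for miR-183-5p, 7 for miR-96-5p and 7 for miR-182-5p. COL25A1, a membrane-bound collagen, held matches for all 3 members, with 1 for miR-183-5p, 2 for miR-96-5p and 3 for miR-182-5p in 5202 bases. TIMP3, an inhibitor of metalloproteinases, held 1 for miR-183-5p, and TIMP4 held 1 for miR-96-5p. COL1A1, COL3A1 and ACTA2 held none for any member, which says only that these letters are not in the human UTR searched. The fibrotic livers of the study were those of mice, whose UTRs were not searched. No messenger RNA was measured in these libraries, so the matches are a description of sequence and not of an effect.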

How the data were processed

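The authors prepared small RNA libraries with a NEBNext kit from RNA of 3 EV batches (1 library each), sequenced them on an Illumina MiniSeq and checked quality with miRTrace. They deposited raw counts per miR name, not normalized, with a column of their mean that was not used. The submitters' processing notes name GRCh38, and neither the aligner nor the counting tool is given in the sources used here. Nothing states that the batches came from separate cultures, so the sign-flip test measures only the spread between libraries, which may be technical, and the exact tests of counts set these libraries against counting noise. A second sheet holds part of the same rows with the same counts and was not used.

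The shares of each library's total (8704, 10834 and 7933 counts), ratios with 0.5 added, Wilson and exact 95% intervals, exact multinomial tests of shares and exact conditional tests of ratios were computed for miRs with at least 30 counts in sum, with every outcome enumerated and Benjamini-Hochberg adjustment at 0.05. Both tests were run on simulated counts that held counting noise and, for the shares, set changes. The simulated counts had no further spread between batches, so they do not show how the p-values behave under such spread. No group comparison could be fitted with 1 condition.

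Named miRs were the members, the 5 nearest by batch pattern, the 3 neighbors on each side by mean share, those sharing a seed, 5 abundant or hepatocyte miRs and the comparison clusters. The members, though taken by name, and the lists were chosen with earlier results of these data known. The test over all 2016 pairs and the comparison clusters without each batch were added after the other results had been seen. Of 512 names, 451 matched a RefSeq mature sequence. Scaling factors came from edgeR 4.0.16 and DESeq2 1.42.0 in R 4.3.3, and all else was computed in Python 3.11.15 (scipy 1.17.1, numpy 2.4.6).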

Additional observations from a re-analysis of the deposited data

How the results depend on the processing

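No paired analysis was possible because all 3 libraries belong to a single condition. The mean shares moved by less than 1 SD with pooled counts, TMM factors, DESeq2 size factors and each batch left out. When the 5 most abundant miRs were left out of the totals they were by construction larger, 3.05% for miR-183-5p, 2.54% for miR-182-5p, 0.0346% for miR-96-5p and 5.62% for the cluster sum. That denominator gave 15 miRs that differed between batches, of 59 tested, and an adjusted p of 0.000178 for miR-182-5p, against 0.000478 with TMM factors and 0.00120 with DESeq2 size factors. For miR-183-5p the adjusted p was 0.0613 with at least 10 counts in sum and 0.0520 in the chi-square test. Without 1 batch it ran from 0.0177 (without replicate 3) to 0.838 (without replicate 1), the number of miRs that differed from 4 (without replicate 1) to 18, and the number of differing ratios from 1 (without replicate 1) to 28 for miR-183-5p and from 1 to 23 for miR-182-5p. With at least 100 counts in sum, 16 of 33 ratios differed for miR-183-5p. The cause of these changes was not tested, other than that fewer miRs and fewer libraries were tested. The log2 ratio of miR-183-5p to miR-182-5p and its test kept their direction and side of the threshold under each alternative run. The depth limits most what can be said of miR-96-5p, with 4 counts in all.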
